A study of Mus musculus with 9 samples.

Results

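The TRIM (tripartite motif) ubiquitin ligase genes were followed in intestinal epithelial cells (IECs) after natural killer T (NKT) cells had been activated in vivo. Members were the protein-coding genes whose symbol is Trim followed by a digit and that had at least 10 raw counts in 3 or more libraries. Of 61 such genes in a table of 29288 genes, 50 met the minimum, and 49 of these had enough counts to be tested. The other 11 were Trim9, Trim29, Trim30b, Trim34b, Trim47, Trim50, Trim52, Trim58, Trim60, Trim63 and Trim66. All mice were female wild-type C57BL/6J animals, 7 to 10 weeks old, the age range stated for all experiments. The control group was 3 mice given PBS and sampled at 18 h, the 18h-αGal group was 3 mice sampled 18 h after 2 µg of α-galactosylceramide (αGalCer), and the 72h-αGal group was 3 other mice sampled 72 h after the same dose. αGalCer is a glycolipid that CD1d presents to NKT cells, and it was given into the peritoneum. Live EpCAM+ cells negative for Ter119, CD31 and CD45 were sorted from crypts of the proximal small intestine, and each library came from 1 mouse. No PBS mice were sampled at 72 h, so an effect of αGalCer at 72 h cannot be told apart from an effect of the time of sampling.

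TRIM proteins share an N-terminal arrangement of a RING domain, B-box domains and a coiled coil, and most of them attach ubiquitin to proteins that a variable C-terminal domain selects. Many are induced by interferons and adjust antiviral sensing in the cytosol, through RIG-I, MDA5, cGAS and their adaptors, while others act on chromatin, on microtubules or in protein quality control. Rodents carry an expanded cluster of TRIM5-related genes, whose C-terminal SPRY domain recognises retroviral capsids in other species, and the epithelium of the gut expresses several members that are rare elsewhere.

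Total counts per library ran from 8887861 in control replicate 3 to 32722293 in control replicate 1. The 8 epithelial markers summed to between 87160 and 126800 normalised counts in each library, and the 20 lymphocyte markers to between 149 and 322, with Cd2, Cd3d, Cd8b1 and Klrd1 among those not in the table. The 16 myeloid markers summed to between 1229 and 1856, of which Ctss and Cd68 held most. A normalised count is a raw count divided by the size factor of its library. Control replicate 3 stood apart from the other controls, with 335300 normalised counts over 10 enterocyte markers against 189000 and 123000, and 33850 over 6 stem cell markers against 52280 and 61980. The stem cell markers summed to 31130, 23920 and 9475 at 18 h and to 51420, 41360 and 64740 at 72 h. Of these 6 markers, 1 was called lower at 18 h and 2 higher from 18 h to 72 h. The enterocyte sums at 18 h (171600 to 280000) and at 72 h (79150 to 162500) each overlapped the controls but not each other. The sums of Paneth, goblet and proliferation markers overlapped between all groups, with 1 goblet and 1 proliferation marker called higher at 18 h against control. The sums of endothelial and stromal markers were low, at 78.45 to 88.27 and 41.76 to 61.67 in the controls. At 18 h they were lower (19.76 to 40.01 and 16.17 to 20.81), and at 72 h they were 70.6 to 98.61 and 16.19 to 35.91. The 10 enteroendocrine markers were a list chosen with earlier results of these data known, so their separation of the groups is not independent evidence. Their sums were 9907 to 12420 in the controls, 13800 to 23490 at 18 h and 4390 to 6517 at 72 h, without overlap. Of the 10 markers, 4 were called higher at 18 h against control and 8 lower from 18 h to 72 h. The 7 tuft cell markers summed to 2499 to 4563, 4421 to 8312 and 2682 to 4331, with 2 called higher at 18 h and 2 lower from 18 h to 72 h. In bulk RNA, fewer cells of a type and less RNA per cell cannot be told apart, and the part of cell makeup in the results below was not tested.

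The members together took between 0.195% and 0.211% of all counts in each library. Levels of different genes were compared as TPM, the count per kilobase of exon scaled to the same total in every library. In controls, 27 of the 50 members lay above 10 TPM. The highest was Trim31, a gut-enriched ligase known to act on MAVS and on the NLRP3 inflammasome, at 346 ± 99.1 TPM (SD, n = 3). It was followed by Trim28, the co-repressor that KRAB zinc finger proteins recruit to silence retroelements, at 158 ± 53.1 TPM. Of the Trim28 exon bases, 67.8% overlap Chmp2a on the opposite strand, so its level is uncertain. The control ranges of Trim31 and Trim28 did not overlap (273.8 to 459 and 101.2 to 206.2 TPM), while that of Trim28 overlapped that of the next gene, Trim25, at 105 ± 17.5 TPM. Trim25 is the ligase of RIG-I. Trim2 (65.3 ± 7.19 TPM) and Trim15 (65.3 ± 17.9 TPM) came next and, at this length, did not differ beyond their spread. The lowest members were Trim75 at 0.731 ± 0.255 TPM and the neuronal gene Trim67 at 0.604 ± 0.0519 TPM, again with overlapping ranges. With the longest transcript in place of all exons as the length, 4 of the 5 highest genes were still among the highest 5. Trim2 was then at 148 TPM, Trim25 at 88.4 TPM and Trim15 at 55.9 TPM, so the order of these genes depended on the length used.

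**Figure D1:**
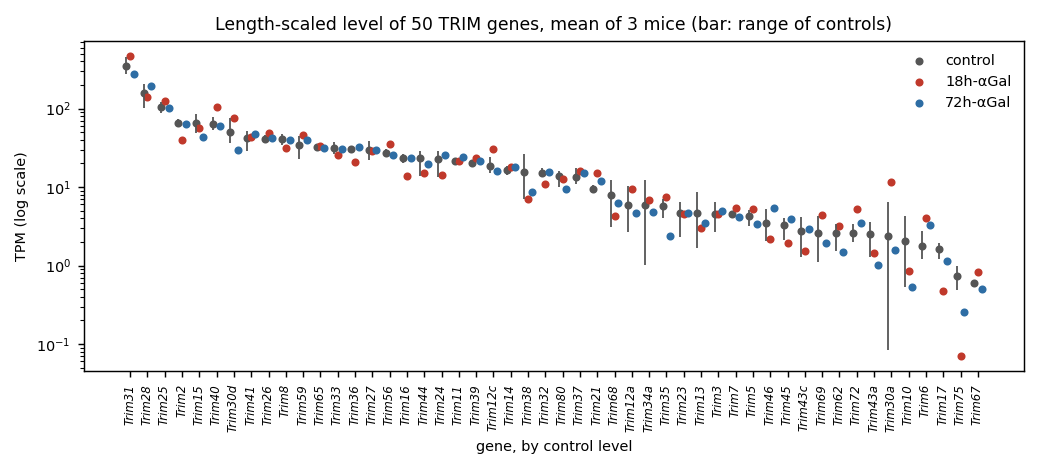
Mean TPM (log axis) of each of the 50 TRIM genes in control, 18h-αGal and 72h-αGal mice (3 mice each), in the order of the control level, with a bar for the range of the controls. Trim31 is highest at 346 TPM and Trim67 lowest at 0.604 TPM in controls, and Trim30a has the widest control bar among the low genes.

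At 18 h, 2 of the 49 tested members fell and 0 rose. The members that fell were Trim2 and Trim16, and neither belongs to the interferon-linked genes. Differences are log2 fold changes of raw counts from edgeR's quasi-likelihood test over all 9 libraries, and a gene was called when its p, adjusted by Benjamini-Hochberg over all 18933 genes tested, was under 0.05. Over all genes, 2.69% were called lower and 3.27% higher at 18 h. At an unadjusted p under 0.05, 16 members stood out, 7 higher and 9 lower, or 16 of 49 where 20.8% of all genes did so. The median log2 fold change was 0.04 over the members and -0.03 over all genes. The 18h-αGal mice lay wholly above the controls for 6 tested members and wholly below for 5, where 11.5% and 12.3% of all genes did so. DESeq2 also called 0 members higher, and it called 4 lower (Trim2, Trim16, Trim24 and Trim36). The count of 2 was 1 when control replicate 1, control replicate 2, 18h-αGal replicate 1 or 18h-αGal replicate 2 was left out and 4 when 18h-αGal replicate 3 was left out.

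The count of members that rose moved most on leaving out control replicate 3. Without it, 8 members were called higher at 18 h (Trim6, Trim12a, Trim12c, Trim25, Trim30a, Trim31, Trim40 and Trim56) and 4 lower (Trim2, Trim16, Trim24 and Trim44), where 4.25% and 3.4% of all genes tested were called. This library had the highest value of the controls in 12 of 15 interferon-linked members (80%), against 36.8% of all genes tested. In those members a fit without it starts from lower control values, so its calls are not independent evidence of a rise. Control replicate 3 was also the smallest library.

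**Figure D2:**
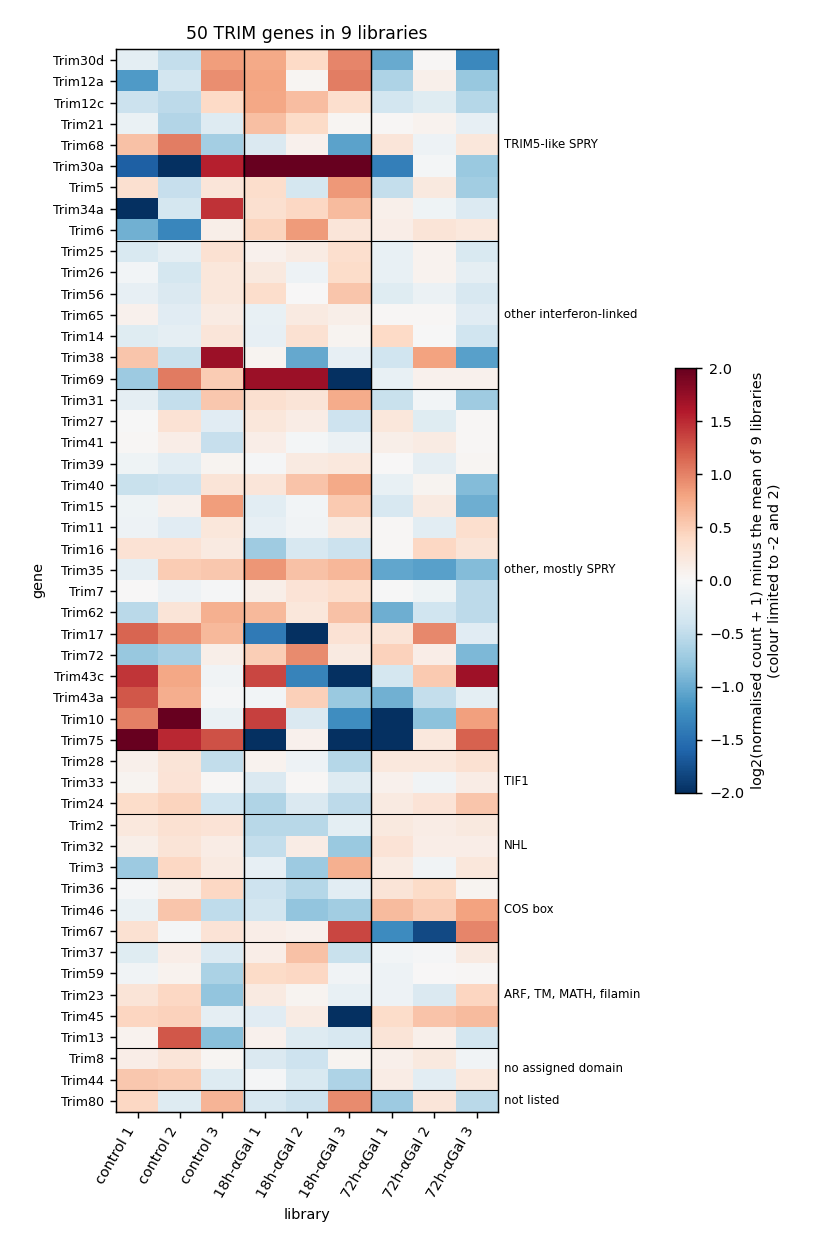
Colour shows log2(normalised count + 1) of each of the 50 TRIM genes (rows, grouped by domain class) in each of the 9 libraries (columns), minus the gene's mean over the libraries, limited to -2 and 2. In the uppermost block, of TRIM5-like genes, control 3 is above the other controls for Trim30d, Trim12a, Trim12c, Trim30a and Trim34a. It lies inside the range of the 18h-αGal libraries for Trim30d, Trim12a and Trim12c, below it for Trim30a and above it for Trim34a.

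The interferon-linked genes were a list written from general knowledge, with earlier results of these data known, so it is not independent evidence. It had 15 members. At 18 h 14 of them were fitted higher and 1 (Trim38) lower, with a median log2 fold change of 0.39, and edgeR and DESeq2 called 0, although 4 had an unadjusted p under 0.05 in edgeR, all higher, where 20.8% of all genes did in either direction. Without control replicate 3, 6 were called higher and the median was 0.70. Over all genes tested, 4.25% were called higher in that fit. With all libraries, the groups did not overlap for 3 of the 15 members (Trim6, Trim21 and Trim30a), where 11.5% of all genes lay wholly higher. Of these 15 genes, 7 lie within a stretch of chromosome 7, from Trim6 (RefSeq GRCm38.p6, start 104218795) to Trim30d (end 104507853). All 7 were fitted higher at 18 h, with a median of 0.66, and 0 were called (2 at an unadjusted p under 0.05, beside the 20.8% of all genes). Without control replicate 3, 4 of the 7 were called and the median was 1.39, where 4.25% of all genes tested were called higher. As this library was the highest control in most of these genes, those calls are not independent evidence of a rise.

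The sequences before the starts of these genes are shown because they hold a motif, and because the Trim30a and Trim30d windows, and those of Trim5, Trim12a and Trim12c, have long stretches in common. RefSeq windows (GRCm38.p6) of 250 bases before to 50 after a gene's start covered 39 of the 50 members. A motif of GAAA, any 2 bases and GAAA, the core of the interferon-stimulated response element that interferon regulatory factors bind, was searched on both strands. It was found for 9 of 39 members (23.1%) and for 3.99% of 27025 genes. By list, it was found for 8 of 13 interferon-linked members, 6 of the 7 genes of the chromosome 7 run and 1 of the 26 other members (Trim2, at base 29, counted with the start as 1). Trim6 is the gene of the run that had none. In the bases before the start alone, 5 members had it, and these are printed 5′ to 3′ on the strand of the gene, with the match in capitals. In each it reads on the opposite strand.
Trim30a (chr7:104465194-104465443, minus strand): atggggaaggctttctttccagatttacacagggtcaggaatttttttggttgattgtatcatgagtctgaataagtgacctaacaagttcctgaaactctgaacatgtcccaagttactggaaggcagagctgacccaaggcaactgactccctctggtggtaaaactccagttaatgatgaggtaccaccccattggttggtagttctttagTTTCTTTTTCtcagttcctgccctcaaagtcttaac
Trim30d (chr7:104507850-104508099, minus strand): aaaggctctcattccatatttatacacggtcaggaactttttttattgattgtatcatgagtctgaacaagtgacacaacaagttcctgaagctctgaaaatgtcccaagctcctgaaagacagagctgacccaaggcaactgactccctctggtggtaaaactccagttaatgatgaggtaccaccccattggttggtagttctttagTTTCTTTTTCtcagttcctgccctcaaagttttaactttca
Trim12c (chr7:104353350-104353599, minus strand): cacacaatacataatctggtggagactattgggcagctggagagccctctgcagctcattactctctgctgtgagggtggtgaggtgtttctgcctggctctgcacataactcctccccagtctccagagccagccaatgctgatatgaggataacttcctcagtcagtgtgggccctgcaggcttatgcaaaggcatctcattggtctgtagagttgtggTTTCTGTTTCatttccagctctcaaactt
Trim5 (chr7:104288107-104288356, minus strand): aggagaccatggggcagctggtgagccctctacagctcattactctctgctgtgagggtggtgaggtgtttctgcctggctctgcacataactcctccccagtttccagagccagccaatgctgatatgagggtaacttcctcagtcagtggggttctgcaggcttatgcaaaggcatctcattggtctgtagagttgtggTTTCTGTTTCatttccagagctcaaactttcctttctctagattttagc
Trim26 (chr17:36836896-36837145, plus strand): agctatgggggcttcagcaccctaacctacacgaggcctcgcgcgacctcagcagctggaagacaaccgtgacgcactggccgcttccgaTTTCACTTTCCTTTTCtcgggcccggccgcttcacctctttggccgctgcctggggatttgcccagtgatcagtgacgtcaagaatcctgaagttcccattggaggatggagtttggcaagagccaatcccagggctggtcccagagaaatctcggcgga
The match began 36 bases before the start in Trim30a, 41 in Trim30d, 29 in Trim12c and 49 in Trim5. In Trim26, which is on chromosome 17, a pair of overlapping matches began 160 and 154 bases before the start. The Trim30a and Trim30d windows had an identical stretch of 118 bases, which holds the match, those of Trim5 and Trim12a one of 191 bases, and those of Trim5 and Trim12c one of 71. In Trim12a, Trim34a and Trim21 the matches lay after the start, at base 11, at base 11 and at bases 14 and 20. A second listed start of Trim30a had a match at base 3. TTCNNNGAA, the core of the gamma-activated site, was found for 5 of 39 members (12.8%) and for 9.55% of all genes. The members were Trim15, Trim31, Trim38, Trim45 and Trim46, and 0 were in the chromosome 7 run. A match is a description of the letters and no evidence of binding.

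Trim30a, whose protein is known to limit Toll-like receptor signalling by removing TAB2 and TAB3, had the largest log2 fold change of the tested members at 18 h. Its normalised counts were 37.6, 3.80 and 349.5 in the controls, 665, 530.0 and 555 at 18 h and 45.2, 115 and 69.9 at 72 h. Each 18h-αGal mouse lay above each control and each 72h-αGal mouse, and control replicate 3 lay well above the other controls. Its log2 fold change at 18 h was 2.33 ± 1.22 (SE), and edgeR's test gave an adjusted p of 0.353. Without control replicate 3 it was 4.71, with an adjusted p of 0.00521. At 72 h against 18 h it was -2.92 ± 1.23 (adjusted p = 0.211). Of the 50-base words of the Trim30a exons, 17.4% occur in another gene, so some of its reads may have been placed elsewhere.

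Trim30d, its neighbour, had 779, 642 and 1590 normalised counts in the controls, 1518, 1179 and 1761 at 18 h and 445, 905 and 364 at 72 h. Control replicate 3 lay inside the range of the 18h-αGal mice, and the 72h-αGal mice lay below all 18h-αGal mice. The log2 fold changes were 0.59 ± 0.43 at 18 h against control (adjusted p = 0.508) and -1.37 ± 0.44 at 72 h against 18 h (adjusted p = 0.0946).

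Trim12a and Trim12c are the mouse genes nearest to the TRIM5 of primates, which restricts retroviruses. Trim12c had 305, 285 and 544 normalised counts in the controls, 708, 635 and 523 at 18 h and 320, 347 and 277 at 72 h. Control replicate 3 was the only control that overlapped the 18h-αGal mice. The log2 fold change of Trim12c at 18 h was 0.75 ± 0.24 (adjusted p = 0.0773, edgeR), and without control replicate 3 it was 1.08 with an adjusted p of 0.00515. Trim12c fell from 18 h to 72 h by 0.98 ± 0.24 on the log2 scale (adjusted p = 0.0171), and its groups at these times did not overlap. The call was lost on leaving out 18h-αGal replicate 1 or 2 or 72h-αGal replicate 1 or 3 (adjusted p from 0.0606 to 0.0872). Of its 50-base words, 38.1% occur in another gene, chiefly Trim5.

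Trim12a had 166, 284 and 697 normalised counts in the controls, 638, 376 and 747 at 18 h and 239.8, 394 and 216 at 72 h, so each pair of groups overlapped. Its log2 fold change at 18 h was 0.66 ± 0.50 (adjusted p = 0.521) with all libraries and 1.39 (adjusted p = 0.0247) without control replicate 3. Trim5 had 97.5, 56.0 and 92.7 normalised counts in the controls, 99.6, 61.1 and 142 at 18 h and 55.6, 89.8 and 47.8 at 72 h. The 3 groups overlapped, and the log2 fold change of Trim5 at 18 h was 0.30 ± 0.42 (adjusted p = 0.751).

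Trim6, which builds free ubiquitin chains in interferon signalling, had 38.8, 30.4 and 83.2 normalised counts in the controls, 105, 139 and 91.1 at 18 h and 84.6, 91.8 and 89.0 at 72 h. All mice given αGalCer lay above all controls. Trim6 had a log2 fold change of 1.21 ± 0.41 at 18 h (adjusted p = 0.103) and of 0.87 ± 0.41 at 72 h against control (adjusted p = 0.841). Without control replicate 3 the former was 1.69 (adjusted p = 0.0198).

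Trim34a had 13.5, 51.3 and 181 normalised counts in the controls, 82.0, 88.0 and 102 at 18 h and 70.7, 61.5 and 54.5 at 72 h. Control replicate 3 had the highest value of all 9 libraries. For Trim34a the log2 fold change at 18 h was 0.23 ± 0.65 (adjusted p = 0.89), with 1.51 on leaving out control replicate 3 and -0.31 on leaving out control replicate 1. Its exons have 54.9% of their 50-base words in common with other genes, chiefly Trim34b, so its level is uncertain.

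Trim21, the cytosolic Fc receptor that sends antibody-bound viruses to the proteasome, lies on chromosome 7 outside this run. Its normalised counts were 203, 147 and 185 in the controls, 335, 290.1 and 228 at 18 h and 226, 233 and 196 at 72 h. Each 18h-αGal mouse lay above each control, and control replicate 3 lay between the other controls. Its log2 fold change was 0.69 ± 0.24 at 18 h (adjusted p = 0.114, edgeR).

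**Figure D3:**
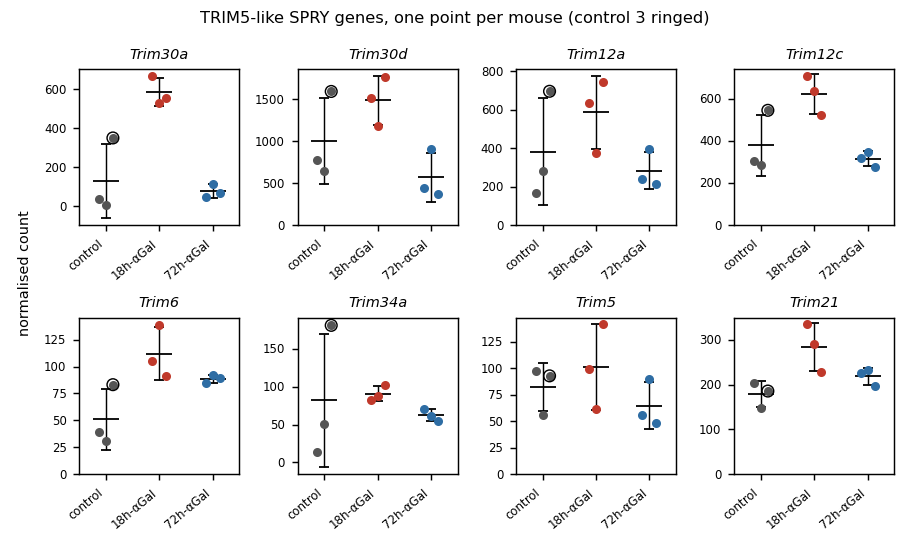
Normalised counts of 8 TRIM5-like SPRY genes, a point per mouse, with the mean (long bar) and SD (error bar) of the 3 mice of each group and control replicate 3 ringed. For Trim30a the 3 points at 18 h (530.0 to 665) lie above all others, while for Trim30d and Trim12a the ringed control lies among the 18 h points.

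The other interferon-linked members lie outside chromosome 7. Trim25, which ubiquitinates RIG-I and also attaches ISG15, had 2567, 2803 and 3944 normalised counts in the controls, 3372, 3580 and 4001 at 18 h and 2868, 3342 and 2579 at 72 h. Control replicate 3 lay near the highest 18h-αGal mouse. For Trim25 the log2 fold change at 18 h was 0.24 ± 0.15 (adjusted p = 0.39) with all libraries and 0.44 (adjusted p = 0.0467) without this library.

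Trim56, a ligase that promotes signalling by STING and by Toll-like receptor 3, had 1219, 1111 and 1586 normalised counts in the controls, 1733, 1371 and 1990 at 18 h and 1155, 1257 and 1091 at 72 h. The 72h-αGal mice lay below all 18h-αGal mice, which overlapped the controls. Trim56 fell between the times by 0.53 ± 0.16 on the log2 scale (adjusted p = 0.0456 in edgeR's test). This call was close to the threshold, and adjusted p-values over all alternatives ran from 0.0142 to 0.169. It was lost on leaving out control replicate 1, 18h-αGal replicate 1 or 3, or any 72h-αGal replicate.

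Trim26, which has been linked to the turnover of IRF3, had 1447, 1184 and 1769 normalised counts in the controls, 1730, 1403 and 1937 at 18 h and 1362, 1579 and 1328 at 72 h. Trim65, the ligase of the RNA sensor MDA5, had 1059, 851 and 1115 in the controls, 894, 1122 and 1080 at 18 h and 1005, 1013 and 851 at 72 h. Trim14, an adaptor of MAVS without a RING domain, had 446, 471 and 630.0 in the controls, 472, 656 and 550 at 18 h and 696, 530 and 400.3 at 72 h. All groups of these 3 genes overlapped. Their log2 fold changes at 18 h were 0.22 ± 0.16 for Trim26, 0.04 ± 0.15 for Trim65 and 0.13 ± 0.22 for Trim14, with adjusted p-values of 0.483, 0.915 and 0.793.

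Trim38, known to restrain Toll-like receptor signalling through TRAF6 and TAB2, was the interferon-linked member fitted lower at 18 h. It had 129.8, 64.5 and 292 normalised counts in the controls, 91.4, 43.1 and 78.7 at 18 h and 67.2, 155 and 41.2 at 72 h. Control replicate 3 was again the highest of all libraries. The log2 fold change at 18 h was -1.15 ± 0.57 (adjusted p = 0.281), and -0.45 without that library. Trim69, with antiviral activity tied to microtubules, had 10.6, 38.0 and 26.1 in the controls, 61.2, 61.1 and 0 at 18 h and 16.2, 19.2 and 19.1 at 72 h. The 0 of 18h-αGal replicate 3 allows a value of up to 4.14 normalised counts (3 counts, counting error only). Its log2 fold change at 18 h was 0.75 ± 0.97 (adjusted p = 0.731).

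**Figure D4:**
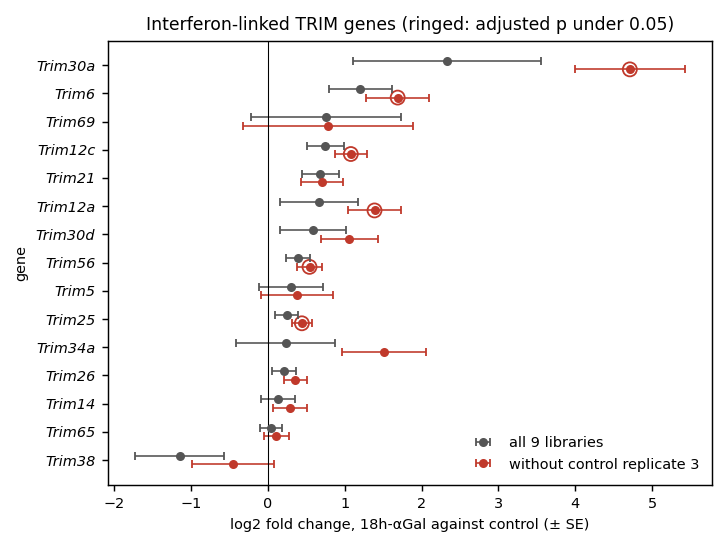
Log2 fold change at 18 h against control (± SE) of the 15 interferon-linked TRIM genes, fitted with all 9 libraries and without control replicate 3, with a ring where the adjusted p was under 0.05. With all libraries 0 genes are ringed, and without control replicate 3 the ringed genes are Trim30a, Trim6, Trim12c, Trim12a, Trim56 and Trim25.

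The members with a called fall at 18 h came from other classes. The summed stem cell markers were likewise lower in all 18h-αGal mice (9475 to 31130) than in the controls (33850 to 61980) and the 72h-αGal mice (41360 to 64740), and their part in these results was not tested. Trim2, a TRIM-NHL protein known as a ubiquitin ligase of neurofilament light chain, had 7349, 7788 and 7620.0 normalised counts in the controls, 4319, 4297 and 5518 at 18 h and 7219, 7001 and 7269 at 72 h. Each 18h-αGal mouse lay below every other mouse. Trim2 fell at 18 h by 0.68 ± 0.11 on the log2 scale (adjusted p = 0.00268) and rose from 18 h to 72 h by 0.61 ± 0.11 (adjusted p = 0.00352) in edgeR's test. Both calls were kept under each of the 16 alternatives for single genes. At 72 h against control its log2 fold change was -0.07 ± 0.11 (adjusted p = 0.972).

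Trim16, a TRIM protein without a RING domain that takes part in the clearance of damaged lysosomes, had 548, 552 and 511 normalised counts in the controls, 274, 360.2 and 335 at 18 h and 459.9, 603 and 542 at 72 h. The 18h-αGal mice lay below all others. Trim16 fell at 18 h by 0.73 ± 0.18 on the log2 scale (adjusted p = 0.0268) and rose from 18 h to 72 h by 0.74 ± 0.18 (adjusted p = 0.0176). The call at 18 h was lost when control replicate 1 or 2 or 18h-αGal replicate 1 or 2 was left out, with adjusted p-values from 0.0587 to 0.104. The later call was lost without 18h-αGal replicate 1 or 72h-αGal replicate 2 or 3.

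From 18 h to 72 h, 5 of the 49 tested members rose and 4 fell. They were Trim2, Trim16, Trim24, Trim36 and Trim46 on the one side and Trim12c, Trim35, Trim40 and Trim56 on the other. Of all genes, 4.18% were called higher and 6.04% lower. The groups did not overlap for 7 members higher and 11 lower at 72 h, where 16.6% and 16.3% of all genes did so, and 13 members had an unadjusted p under 0.05, where 24.3% of all genes did. The 18h-αGal mice enter this comparison and that with control, so the values of each are given side by side and not as independent evidence. The count of members that rose was 2 without 18h-αGal replicate 1, 72h-αGal replicate 2 or 72h-αGal replicate 3, and 3 without 18h-αGal replicate 3 or 72h-αGal replicate 1. The count of members that fell was 8 without control replicate 3, 2 without control replicate 1 or any single 18h-αGal replicate, and 1 without 72h-αGal replicate 1 or 3.

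Trim24 belongs to the TIF1 genes, whose products carry a PHD finger and a bromodomain and act on chromatin. It had 1616, 1702 and 956 normalised counts in the controls, 827, 1024 and 869 at 18 h and 1425, 1526 and 1852 at 72 h. Control replicate 3 lay among the 18h-αGal mice, and all 72h-αGal mice lay above them. The rise from 18 h to 72 h was 0.83 ± 0.19 on the log2 scale (adjusted p = 0.0148), lost without 18h-αGal replicate 1 or 3 or 72h-αGal replicate 3. The difference at 18 h against control was -0.65 ± 0.19 (adjusted p = 0.0618). The related Trim28 had log2 fold changes of -0.16 ± 0.20 at 18 h and 0.42 ± 0.20 from 18 h to 72 h (adjusted p = 0.715 and 0.206). Of its 50-base words, 43.3% occur in another gene, chiefly Chmp2a.

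Trim36 and Trim46 have a COS box, a stretch that binds microtubules, and Trim46 is known for ordering microtubules in axons. Trim36 had 709.5, 781 and 953 normalised counts in the controls, 537, 483 and 621 at 18 h and 856, 939 and 742 at 72 h. The 18h-αGal mice lay below all others. Trim36 rose from 18 h to 72 h by 0.64 ± 0.16 on the log2 scale (adjusted p = 0.0226), and its difference at 18 h against control was -0.56 ± 0.16 (adjusted p = 0.0564). The call was lost without 18h-αGal replicate 1 or 2 or 72h-αGal replicate 1 or 2.

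Trim46 had 89.9, 145 and 68.9 normalised counts in the controls, 76.3, 56.6 and 60.7 at 18 h and 154, 140.2 and 173 at 72 h. Each 72h-αGal mouse lay above each 18h-αGal mouse. The rise between the times was 1.27 ± 0.35 on the log2 scale (adjusted p = 0.0297), and leaving out 18h-αGal replicate 2 or 3 or any 72h-αGal replicate ended the call. The third COS-box member, Trim67, had 29.4, 22.8 and 28.5 normalised counts in the controls, 25.9, 25.1 and 60.7 at 18 h and 9.27, 6.05 and 47.1 at 72 h, with overlap throughout.

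Trim35, a SPRY gene linked to Toll-like receptor signalling and IRF7, had 142, 228 and 233 normalised counts in the controls, 298, 242 and 254 at 18 h and 77.6, 74.6 and 87.6 at 72 h. The 72h-αGal mice lay below all 6 others, and the 18h-αGal mice lay above all controls. The summed enteroendocrine markers came from a list chosen with earlier results known. They had the same order of groups, highest at 18 h and lowest at 72 h without overlap. Their part in the result for Trim35 was not tested. Trim35 fell from 18 h to 72 h by 1.72 ± 0.28 on the log2 scale (adjusted p = 0.00174), a call kept under each of the 16 alternatives. Its log2 fold change at 18 h against control was 0.42 ± 0.27 (adjusted p = 0.413). At 72 h against control it was -1.30 ± 0.28, with an unadjusted p of 0.000279 and an adjusted p of 0.373.

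Trim40, a gut-enriched gene known to restrain NF-κB, had 640.2, 651 and 1034 normalised counts in the controls, 1027, 1285 and 1476 at 18 h and 779.6, 901 and 474 at 72 h. The 18h-αGal mice lay above all 72h-αGal mice, and control replicate 3 lay just inside their range. Trim40 fell between the times by 0.81 ± 0.24 on the log2 scale (adjusted p = 0.0493, edgeR). It lost the call under 10 of 16 alternatives, among them leaving out control replicate 1 or 2, 18h-αGal replicate 2 or 3, or 72h-αGal replicate 1 or 3. At 18 h against control its log2 fold change was 0.72 ± 0.24 (adjusted p = 0.100).

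**Figure D5:**
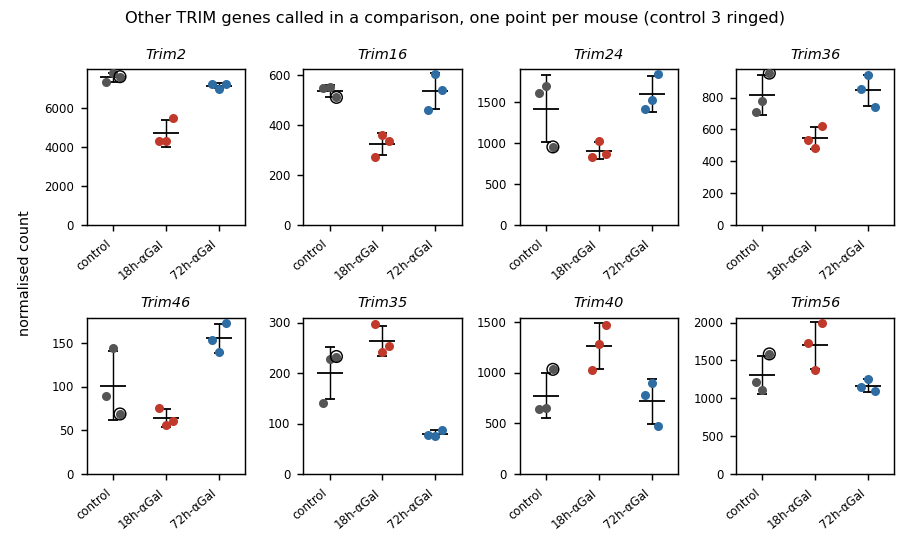
Normalised counts of the 8 other TRIM genes called in a comparison, a point per mouse, with the mean (long bar) and SD (error bar) of the 3 mice of each group and control replicate 3 ringed. Trim2 shows 3 points at 18 h (4297 to 5518) below all others, and Trim35 shows 3 points at 72 h (74.6 to 87.6) below all others.

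Trim40 lies on chromosome 17 near Trim10, Trim15, Trim26, Trim31 and Trim39. These 6 members had a median log2 fold change of 0.21 at 18 h and of -0.56 from 18 h to 72 h, with 1 called (Trim40, lower at 72 h). Over all genes these medians were -0.03 and 0.05, and 6.04% were called lower from 18 h to 72 h. Trim31, the highest member by TPM, had 3491, 2855 and 5772 normalised counts in the controls, 4913, 4738 and 6587 at 18 h and 2912, 3805 and 2418 at 72 h. Its control replicate 3 lay inside the range of the 18h-αGal mice, and all 72h-αGal mice lay below that range. The log2 fold changes were 0.43 ± 0.26 at 18 h (adjusted p = 0.399) and -0.82 ± 0.26 from 18 h to 72 h (adjusted p = 0.0832). Trim15, linked to focal adhesions, had 503, 571 and 946 normalised counts in the controls, 458, 514 and 766 at 18 h and 424, 601 and 269 at 72 h, with overlap throughout.

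At 72 h against control, edgeR called 0 of the 49 tested members, and 5 of 18933 genes (0.0264%), all lower. These 5 were enteroendocrine markers (Chga, Chgb, Neurod1, Tac1 and Tph1), from a list chosen with earlier results of these data known. At an unadjusted p under 0.05 there was 1 member (Trim35, lower), where 5.94% of all genes reached it, and DESeq2 called 1 member (Trim35, lower). The groups did not overlap for 1 member higher (Trim6) and 3 lower, where 6.36% and 6.3% of all genes did so. The median log2 fold change of the members was -0.06, against 0.00 over all genes. The median absolute log2 fold change was 0.25 over the members and 0.24 over all genes, and at 18 h these medians were 0.46 and 0.37.

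The remaining 23 members were called in 0 of the comparisons, with control levels from 1.65 to 41.8 TPM. Their log2 fold changes at 18 h ran from -1.82 (Trim17) to 1.01 (Trim72), and 7 of the 23 had an unadjusted p under 0.05, where 20.8% of all genes did. From 18 h to 72 h they ran from -1.11 (Trim62) to 1.29 (Trim17). By class, the 5 members with ARF, transmembrane, MATH or filamin domains ran from -0.72 (Trim45) to 0.44 (Trim59) at 18 h. The class named for other SPRY genes, in which Trim31 and Trim40 are known to lack that domain, had 17 members, and 1 of the 16 tested fell at 18 h (Trim16). Trim75, the member not tested, had 17.6, 11.4 and 9.51 normalised counts in the controls, 0, 3.59 and 0 at 18 h and 0, 4.03 and 8.83 at 72 h. The zeros at 18 h allow up to 1.89 and 4.14 normalised counts. All 3 TIF1 members and both members without an assigned domain (Trim8 and Trim44) were fitted lower at 18 h, and edgeR called none of these.

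Genes of the same pathways under other names were taken from fixed lists. Pml, the TRIM gene that builds nuclear bodies, had 1618, 1355 and 1398 normalised counts in the controls, 2170, 2328 and 2168 at 18 h and 1592, 1492 and 1389 at 72 h. It rose at 18 h by 0.62 ± 0.12 on the log2 scale (adjusted p = 0.00672) and fell from 18 h to 72 h by 0.57 ± 0.12 (adjusted p = 0.00699), and was the only called gene of the 4 tested in that list. Of 19 genes of cytosolic nucleic acid sensing, on which many TRIM ligases act, 2 rose at 18 h, where 3.27% of all genes were called higher. Those that rose were the DNA sensor Cgas, by 1.06 ± 0.28 (adjusted p = 0.0349), and the CpG-RNA binding protein gene Zc3hav1, by 0.75 ± 0.13 (adjusted p = 0.00378). From 18 h to 72 h 4 of the 19 fell (Ifih1, Mavs, Tbk1 and Zc3hav1), where 6.04% of all genes were called lower.

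Of 13 ubiquitin-conjugating enzymes with which TRIM ligases work, 0 were called at 18 h, and Ube2d3 and Ube2n fell from 18 h to 72 h, by 0.41 ± 0.10 and 0.54 ± 0.13 on the log2 scale. Over all genes, 6.04% were called lower from 18 h to 72 h. At an unadjusted p under 0.05 there were 4 of the 13 at 18 h, all higher, where 20.8% of all genes reached it in either direction, and DESeq2 called 0. Of the 6 genes of ISG15 conjugation, which include Trim25, 2 rose at 18 h and fell again, where 3.27% of all genes were called higher at 18 h. Ube2l6, the conjugating enzyme for ISG15, had 261, 265 and 825 normalised counts in the controls, 1757, 2366 and 2101 at 18 h and 252, 327 and 209 at 72 h. It rose by 2.26 ± 0.45 (adjusted p = 0.0258). Usp18, which removes ISG15, rose by 2.35 ± 0.56 (adjusted p = 0.0316), from 39.9, 41.8 and 169 normalised counts in the controls to 310.2, 371 and 505 at 18 h. Control replicate 3 was thus the highest control in these genes too.

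Of 10 genes of interferon-γ signalling, 4 rose at 18 h, among them Irf1, Irf8 and Socs1, and 6 fell from 18 h to 72 h, among them the same 3 and Jak2. Over all genes, 3.27% were called higher at 18 h and 6.04% lower from 18 h to 72 h. The median log2 fold change at 18 h was 0.58 over these 10 genes, 1.80 over the ISG15 genes, 0.18 over the sensing genes and 0.39 over the 15 interferon-linked TRIM members, beside -0.03 over all genes. Without control replicate 3, 8 sensing genes, 5 ISG15 genes and 5 interferon-γ genes were called higher at 18 h, where 4.25% of all genes tested were.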

How the data were processed

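The authors sequenced ribosomal RNA-depleted, strand-directional libraries as 100 base reads, and per the labels' processing notes used HISAT2, featureCounts (Subread) and DESeq2 1.42.0. The strand setting and the annotation release are not given in the sources used here. They deposited raw read counts per gene, the counts tested here, and a normalised signal per gene, which equals the raw count divided by 1 size factor per library. The processing notes name GRCm38 and the methods GRCm39. Identifiers in the table stop below 24418 identifiers of GENCODE vM39, so positions are from RefSeq GRCm38.p6, and symbols and exon lengths from GENCODE vM39 (28480 identifiers matched and 808 did not). Genes on opposite strands or with shared sequence may have exchanged reads. Members and lists were chosen with earlier results of these data known. Named members are those called in a comparison, the interferon-linked list and the 5 highest and 2 lowest by control TPM.

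Counts were tested in R 4.3.3 with edgeR 4.0.16 (filterByExpr, TMM, robust quasi-likelihood, all 9 libraries in 1 fit of 3 group means, two-sided, Benjamini-Hochberg adjustment). The procedure was tested on simulated data. Alternatives were DESeq2 1.42.0, other size factors, filters, spread settings and groups fitted, a replicate block, a fold minimum and leaving out each library. The fits on related lists under these settings and the promoter windows without the bases after the start were added after seeing the data. Intervals for zeros cover counting error only.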

Additional observations from a re-analysis of the deposited data

Results flagged for a closer look

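For 9 of the 49 tested members the 72h-αGal mice differed from the 18h-αGal mice in edgeR's direct test. Over all genes, 4.18% were called higher and 6.04% lower at 72 h in that test. The log2 fold change at 72 h against 18 h was 0.61 for Trim2, 0.74 for Trim16, 0.83 for Trim24, 0.64 for Trim36 and 1.27 for Trim46. It was -0.98 for Trim12c, -1.72 for Trim35, -0.81 for Trim40 and -0.53 for Trim56. The only control mice were sampled at 18 h, so these differences cannot be told apart from an effect of the time of sampling. Trim35 was the single one of the 9 with an unadjusted p under 0.05 at 72 h against control. Groups of 3 mice were too small for a test of single far values.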

How the results depend on the processing

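The counts of called members moved with single libraries. At 18 h, members called higher (0) numbered 1 with no filter on low counts (Trim12c) and from 0 to 8 on leaving out a library, the highest without control replicate 3. Members called lower (2) numbered 4 with no filter, 4 with DESeq2, 1 with only the compared groups fitted, 0 where a log2 change of 1 or more in size was also required, and from 1 to 4 on leaving out a library. At 72 h against control, DESeq2 called 1 lower. From 18 h to 72 h, members called higher (5) numbered 1 at that fold minimum and from 2 to 5 on leaving out a library. Members called lower (4) numbered 8 with only the compared groups, 1 at the fold minimum and from 1 to 8 on leaving out a library. The cause of these shifts was not tested. Called genes of the related lists at 18 h (9) ran from 5 to 18 on leaving out a library. Without the bases after the start, 5 members and not 9 held the interferon-stimulated response element core, since fewer bases were searched. Log2 fold changes at 18 h turned direction on leaving out a library for Trim34a (-0.31 and -0.0034, range -0.31 to 1.51), Trim5 (-0.0094, range -0.0094 to 0.56) and Trim65 (-0.0629 and -0.0234, range -0.0629 to 0.13), none of which was called. Whether replicate numbers pair the mice was not settled. Same-number deviations correlated between -0.15 and 0.114, and 3 of 9 samples correlated best with their own number. Between control and 18h-αGal mice the same-number values were 0.0237, 0.0607 and 0.1145. Each was the highest for that control among the 18h-αGal mice. Those with a 72h-αGal mouse were all negative, from -0.1503 to -0.0076. With a replicate block, 2 members were called lower and 4 higher from 18 h to 72 h, and 2 lower at 18 h. Where an arm was left with 2 mice, the spread was shared over all groups. Low counts limit Trim10, Trim43c, Trim69 and Trim75, each with a library at 0.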
